A study of Mus musculus with 12 samples.

Results

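The glutathione S-transferase genes were followed through B lymphocytes of the mouse spleen. Members were chosen by symbol: Gsta4, Gstm1, Gstm5, Gstp1, Gsto1, Gstt1, Gstt2, Mgst1, Mgst2 and Mgst3, which are 10 of the 24982 symbols measured. The cells came from mice 6 weeks of age in 3 groups of 4 libraries. WT mice were C57BL/J6. Eμ-Myc mice carry a Myc transgene under an immunoglobulin heavy-chain enhancer, which drives Myc in B-lineage cells. The third group, Eμ-Myc; PRPS2 KO, carries the same transgene and lacks PRPS2, one of the synthetases of phosphoribosyl pyrophosphate, a precursor of nucleotides, and is called the knockout group here. The transgene is therefore common to both non-WT groups, and no group lacks PRPS2 without it. The labels give no sex, tumour status or cell isolation method, and say only that libraries of a group are biological replicates.

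Glutathione S-transferases join the thiol of glutathione to electrophilic compounds such as oxidised lipids and drugs, so that the product can be exported. The soluble enzymes fall into classes named by Greek letters (alpha, mu, pi, omega, theta, zeta), and a separate family of small membrane proteins, called MAPEG, holds Mgst1, Mgst2 and Mgst3. Several of these genes are known targets of NRF2, the transcription factor of the oxidative stress response, and membrane members are well known in myeloid cells, where some take part in leukotriene synthesis.

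Values are mean read coverages per gene, divided by a scaling factor for each library ("scaled coverage"). Coverage is an average over the bases of a gene, so levels of different genes are set side by side with length taken into account. How shared reads were counted is not given in the sources used here, so such orders are approximate. Changes are log2 fold changes of scaled coverage plus 0.5 from limma, called at an adjusted p under 0.05 over all genes tested. The 3 comparisons were Eμ-Myc with WT, the knockout group with Eμ-Myc, and the knockout group with WT. By label, the first pair of groups differs in the transgene and the second in PRPS2. Libraries also differed in markers of other cells, given below, so each comparison is a difference between groups. The last comparison shares its libraries with the other two.

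The libraries met their labels at the targeted genes. In WT, Eμ-Myc and knockout libraries, in that order, Prps2 averaged 128 ± 20.3, 243 ± 35.4 and 17.0 ± 1.17, and Myc 278 ± 53.9, 1886 ± 291 and 2246 ± 1003 (SD, n = 4 each). All 6 B-cell markers were present in each library, with a summed scaled coverage of 5962 to 11518. The 5 markers of early B cells (Vpreb1, Igll1, Rag1, Rag2 and Dntt) summed to 8.16 to 20.6 in WT libraries, 39.5 to 72.5 in Eμ-Myc libraries and 28.3 to 42.3 in knockout libraries, and 4 of the 5 were called higher than WT in either other group. Markers of other cells were present too, and none of them was at 0 in all 4 libraries of a group. The 8 myeloid markers summed to 8067 to 24886 in WT libraries, 5589 to 16650 in Eμ-Myc libraries and 1212 to 15374 in knockout libraries, mostly S100a8, S100a9 and Lyz2. The 6 T-cell markers summed to 361 to 1934, 74.4 to 107.7 and 10.1 to 452. WT library 1 held the highest myeloid sum and WT library 4 the highest T-cell sum. Knockout libraries 3 and 4 stood apart: their T-cell sums were 10.6 and 10.1 and their myeloid sums 2909 and 1212, against T-cell sums of 444 and 452 and myeloid sums of 15374 and 11098 in knockout libraries 1 and 2. In such bulk samples, fewer cells of a type and less RNA per cell cannot be told apart.

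The promoters of genes that rose in Eμ-Myc are shown to give the sequence before their starts. The 5 rises among 10 members stand beside 28.3% of all genes called higher there, and nothing about the members is read from that count. RefSeq windows were found for 8 of the 10 genes (build GRCm38.p6), and not for Gsta4 or Gstt2. Each sequence below lies before the gene's start, runs 5′ to 3′ on the gene's strand, and stops where the GENCODE M21 gene begins. Capitals mark the only match to either motif searched.
Gstm5, chr3:107895604-107895820, plus strand: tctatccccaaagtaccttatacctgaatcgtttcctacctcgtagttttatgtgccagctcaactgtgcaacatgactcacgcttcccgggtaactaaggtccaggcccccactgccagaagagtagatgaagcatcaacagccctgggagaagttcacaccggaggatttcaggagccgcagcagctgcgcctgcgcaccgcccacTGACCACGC
Gsto1, chr19:47854723-47854969, plus strand: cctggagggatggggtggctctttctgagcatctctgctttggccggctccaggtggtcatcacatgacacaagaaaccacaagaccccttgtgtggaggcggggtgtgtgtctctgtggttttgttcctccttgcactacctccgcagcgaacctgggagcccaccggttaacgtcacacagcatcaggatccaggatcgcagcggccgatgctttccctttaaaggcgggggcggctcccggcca
Gstp1, chr19:4037986-4038162, minus strand: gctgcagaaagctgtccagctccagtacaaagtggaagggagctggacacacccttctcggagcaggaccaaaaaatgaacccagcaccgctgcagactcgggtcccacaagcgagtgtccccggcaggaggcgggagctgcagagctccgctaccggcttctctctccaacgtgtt
Mgst3, chr1:167393842-167394091, minus strand: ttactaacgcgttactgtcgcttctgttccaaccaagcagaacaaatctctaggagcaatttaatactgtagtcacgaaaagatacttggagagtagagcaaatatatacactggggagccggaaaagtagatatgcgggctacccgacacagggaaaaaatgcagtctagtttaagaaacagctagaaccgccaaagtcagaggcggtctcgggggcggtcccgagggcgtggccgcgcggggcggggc

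Both motifs were searched on both strands of the 250 bases before each RefSeq start. The core of the antioxidant response element, the NRF2 site, was written as TGACNNNGC, and the E-box of MYC and its partners as CACGTG. The motifs as written share no complete match, though they can overlap in part. The antioxidant core was found for 2 of the 8 genes, Gstm5 and Mgst1, and in 10.2% of 32851 promoter windows of the same length. The Gstm5 match begins 42 bases before the RefSeq start. The E-box was found for 0 of the 8 genes and in 6.02% of all windows. These are matches of letters in a short window and say nothing of binding.

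In Eμ-Myc against WT, 5 of the 10 genes rose, namely Gsto1, Gstm5, Mgst3, Gstt2 and Gstp1, and Mgst2 fell. Mgst1, Gstm1, Gsta4 and Gstt1 did not pass. All 10 genes passed the filter on low values in this comparison. The 6 called genes compare with a background in which 55.8% of 12704 genes were called, 28.3% higher and 27.5% lower, so the members' share is near the background. Groups did not overlap for 4 of the 10 genes and for 51.9% of all genes. Early B-cell markers rose in Eμ-Myc, 4 of 5 called and Dntt not, beside the 5 transferases that rose, and the part of B-cell stage in these rises was not tested. The median log2 fold change was 0.37 over the 10 genes and -0.06 over all genes tested.

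Gsto1 encodes the omega-class enzyme, whose active-site cysteine gives it thiol transferase and dehydroascorbate reductase activity. In the fit reported it had the highest log2 fold change of the 10 genes, close to that of Gstm5, which was higher with a pseudocount of 0.1, with quality weights (1.86 against 1.42), without WT library 4 (1.54 against 1.29) and, by a smaller margin, without Eμ-Myc library 1 or 2. WT libraries 1 to 4 held 103, 74.3, 71.1 and 51.8, and Eμ-Myc libraries 183, 238, 195 and 191. Every Eμ-Myc library lay above every WT library, and the log2 fold change was 1.46 (SE 0.19, limma adjusted p 2.00e-04), a ratio of means of 2.69. The gene lies on chromosome 19 at 47854970 to 47864790 (mm10). The other omega-class gene, Gsto2, reached at most 0.760 in any library.

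Gstp1, the pi-class enzyme and a known partner of the kinase JNK, was the most abundant soluble member in WT. It held 132, 144, 118 and 145 in WT and 164, 259, 185 and 195 in Eμ-Myc. The groups did not overlap, and the log2 fold change was 0.56 (SE 0.14, limma adjusted p 0.00898), the smallest of the 5 rises. Of the 50-base words in its transcripts, 33.7% also occur in those of Gstp2, next to it on chromosome 19. How reads shared between them were counted is not given in the sources used here. Gstp2 was at 2.50 or lower in every library.

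Gstp3, a further pi-class gene near Gstp1 on chromosome 19, was not among the 10 but went the other way. It held 34.9, 17.4, 18.6 and 91.8 in WT and 7.15, 6.71, 6.01 and 7.03 in Eμ-Myc, and fell by 2.17 on the log2 scale (SE 0.47, limma adjusted p 0.00403). Its highest value was in WT library 4, which also had the highest T-cell sum, and it was at 0.654 and 1.63 in knockout libraries 3 and 4. The part of T cells in this difference was not tested.

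The theta-class genes, whose enzymes act on small electrophiles such as halogenated alkanes, sit together on chromosome 10 and differed. Gstt2 (75831114 to 75837424, mm10) held 20.2, 29.3, 28.4 and 32.8 in WT and 44.6, 75.2, 52.3 and 61.8 in Eμ-Myc, again without overlap. Its log2 fold change was 1.06 (SE 0.19, limma adjusted p 0.00142). Gstt3, its relative in the same cluster, was lower in level at 3.92 to 5.60 in WT and 8.34 to 11.7 in Eμ-Myc, and rose by 1.01 (SE 0.18, limma adjusted p 0.00126). Its exons overlap those of Gm20441 on the same strand, so reads of this pair cannot be told apart. Gstt1, which lies between them, was the lowest of the 10 genes, with 2.00, 1.82, 2.04 and 0.458 in WT and 0.836, 0.725, 1.80 and 0.223 in Eμ-Myc. Its log2 fold change was -0.59 (limma adjusted p 0.254), and a value near 1 is close to the floor of these files.

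The mu-class genes form a cluster on chromosome 3 and also differed from each other. Gstm5 (107895821 to 107898686, mm10) was low, at 5.60, 1.63, 3.30 and 5.04 in WT, and held 6.96, 10.1, 12.3 and 12.3 in Eμ-Myc. All 4 Eμ-Myc libraries were above the WT libraries, and the log2 fold change was 1.39 (SE 0.34, limma adjusted p 0.00684). An exon of the opposite-strand gene 4933431E20Rik overlaps it. Whether strand was used in counting is not given in the sources used here, so reads of the pair cannot be told apart. Gstm1, a classic drug-conjugating enzyme, held 44.7, 24.7, 21.9 and 27.3 in WT and 30.6, 43.9, 25.4 and 22.2 in Eμ-Myc. The groups overlapped, with a log2 fold change of 0.05 (95% interval -0.54 to 0.64) that turned to -0.08 when libraries were scaled by total coverage. Of its 50-base words, 18.9% are shared with other genes, most of them with the pseudogene Gstm2-ps1. Gstm4 of the same cluster averaged 16.9 in WT and 13.2 in Eμ-Myc and did not pass (limma adjusted p 0.0772).

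Gsta4, of the alpha class, is known for conjugating hydroxynonenal, a product of lipid peroxidation. It was low in both groups, at 2.96, 5.17, 5.83 and 4.24 in WT and 5.66, 5.62, 5.31 and 2.90 in Eμ-Myc. These overlapped, and the log2 fold change was 0.09 (95% interval -0.52 to 0.69). With total coverage scaling it was -0.03. The alpha genes Gsta1, Gsta2 and Gsta3 were under 1 in every library, and Gsta1 was listed at 0 in all 12.

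**Figure D1:**
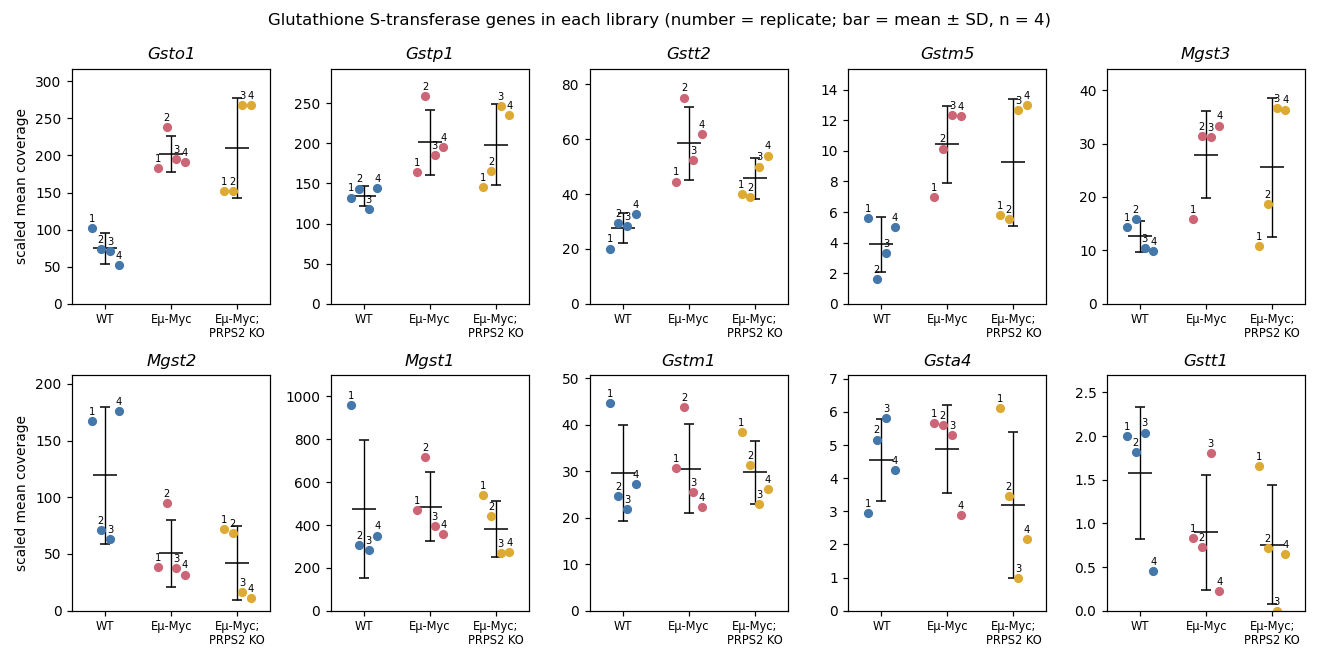
Scaled mean coverage (y axis, linear, from 0) of each of the 10 genes in the 4 WT, 4 Eμ-Myc and 4 Eμ-Myc;PRPS2 KO libraries; points carry the replicate number and bars give the mean ± SD. For Gsto1 the Eμ-Myc libraries, at 183 to 238, lie above all WT libraries, at 51.8 to 103, and for Gsto1, Gstp1, Gstm5 and Mgst3 knockout libraries 3 and 4 lie above 1 and 2.

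Of the membrane genes, Mgst3 rose, Mgst2 fell and Mgst1 did not pass. Mgst3, a glutathione-dependent peroxidase of the endoplasmic reticulum, held 14.3, 15.8, 10.5 and 9.86 in WT and 15.8, 31.4, 31.1 and 33.4 in Eμ-Myc. Eμ-Myc library 1 lay at the level of the highest WT library and the other three near 2-fold above it. The log2 fold change was 1.08 (SE 0.26, limma adjusted p 0.00591). It lies on chromosome 1 at 167371966 to 167393841 (mm10).

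Mgst2, which can form cysteinyl leukotrienes, fell. WT libraries held 167, 70.8, 63.1 and 176, and Eμ-Myc libraries 38.3, 94.7, 37.4 and 31.9. WT libraries 1 and 4 were more than 2-fold above WT libraries 2 and 3, and Eμ-Myc library 2 lay inside the WT range. The log2 fold change was -1.22 (SE 0.44, limma adjusted p 0.0417). The call was lost with any of 5 libraries left out: the value was -1.01 without WT library 1 (adjusted p 0.0884), -0.98 without WT library 4 (0.109), and for Eμ-Myc libraries 1, 3 and 4 left out singly it was -1.14 (adjusted p 0.0901), -1.13 (0.103) and -1.05 (0.115). It was also lost with all 12 libraries in one fit (0.129), with a replicate block (0.0736) and when every library had to reach 10 (0.0515). Among 43 versions of the scaling it was called in 38.

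T-cell, NK-cell, myeloid, and basophil and mast-cell markers were high where Mgst2 was high in WT. WT libraries 1 and 4, where Mgst2 was highest, had the highest T-cell sums of WT at 642 and 1934, against 361 and 470.3 in WT libraries 2 and 3, and the highest myeloid sums at 24886 and 14711, against 8108 and 8067. Their B-cell sums were the lowest of WT, at 6091 and 5962 against 11518 and 9883. NK-cell sums in WT libraries 1 to 4 were 593, 195, 220 and 827. Basophil and mast-cell sums there were 38.3, 5.93, 11.6 and 61.8. Platelet sums went the other way, at 223, 384, 366 and 76.9. Eμ-Myc library 2, at 94.7, had the highest myeloid sum of its group at 16650, while its T-cell sum of 94.2 was like the others. Its NK-cell (143) and basophil and mast-cell (17.3) sums were also the highest of its group. Erythroid and early B-cell sums were highest in WT libraries 1 and 4, but lowest of its group in Eμ-Myc library 2. Each of the 6 T-cell markers and 4 NK-cell markers fell in Eμ-Myc against WT, and 0 of 8 myeloid markers were called. The part of these cells in the fall of Mgst2 was not tested.

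Mgst1, an enzyme of the endoplasmic reticulum and outer mitochondrial membrane with conjugating and peroxidase activity, was the most abundant of the 10 genes in all 3 groups. It held 958, 307, 283 and 351 in WT and 470.0, 718, 393 and 359 in Eμ-Myc. WT library 1 lay far above the other WT libraries, and the groups overlapped. The log2 fold change was 0.18 (95% interval -0.71 to 1.06), and without WT library 1 it was 0.58 with a limma adjusted p of 0.0586. Within both groups the library with the highest Mgst1 also had the highest myeloid sum, WT library 1 at 24886 and Eμ-Myc library 2 at 16650. The same pair held the highest Gstm1. In knockout libraries 3 and 4, where the myeloid sum was 2909 and 1212, Mgst1 was still 269 and 276. The part of myeloid cells in the level of Mgst1 and Gstm1 was not tested.

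**Figure D2:**
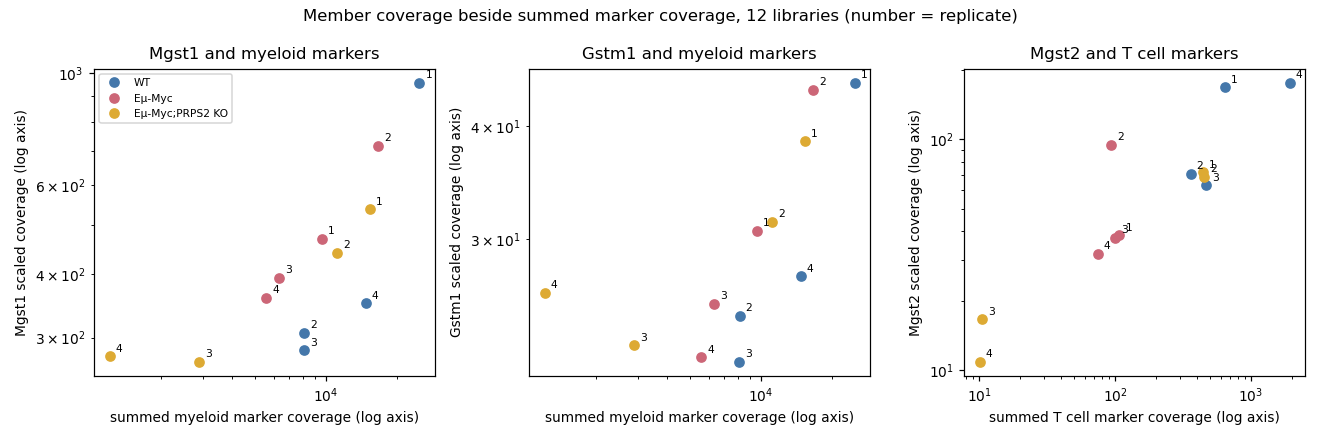
Scaled coverage of Mgst1, Gstm1 and Mgst2 (y, log axis) against the summed scaled coverage of the myeloid or T-cell markers (x, log axis) in the 12 libraries, numbered by replicate and coloured by group. WT library 1 is at the upper right for Mgst1 (958, with a myeloid sum of 24886), and knockout libraries 3 and 4 are at the lower left for Mgst2 (16.6 and 10.9, with T-cell sums of 10.6 and 10.1).

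In the knockout group against Eμ-Myc, 0 of the 9 genes tested were called by limma. Among all 12535 genes 1, Prps2 itself, was called (0.00798%). At an unadjusted p under 0.05 there were 0 of the 9 genes and 118 of all genes (0.941%). Gstt1 was too low to be tested here. For 0 of the 9 genes did the groups lie apart, against 1.60% of all genes. The values have room for change in either direction: the 95% interval of the log2 fold change was -0.53 to 0.54 for Gsto1, -0.53 to 0.47 for Gstp1, -0.58 to 0.54 for Gstm1, -0.77 to 0.10 for Gstt2, -1.02 to 0.55 for Gstm5, -1.05 to 0.33 for Mgst1, -1.21 to 0.75 for Mgst3, -1.76 to 0.34 for Gsta4 and -2.10 to 0.98 for Mgst2. For each of these 9 genes the interval ended below a log2 fold change of 1, and for Gsto1, Gstp1, Gstm1 and Gstt2 it also began above -1. With the replicate number as a block the interval was -0.81 to 0.09 for Mgst1, -0.75 to 0.29 for Mgst3, -0.78 to 0.31 for Gstm5 and -0.79 to 0.12 for Gstt2, so those of Mgst1, Mgst3 and Gstm5 then began above -1 as well, and again 0 of the 9 genes had an unadjusted p under 0.05, beside 130 of all genes (1.04%). Gstt2 was lower in the knockout library of all 4 same-numbered pairs (blocked limma p 0.118, adjusted p 1). With library quality weights, which gave knockout libraries 3 and 4 most of the weight, 5 of the 9 genes were called, as were 7488 of all genes (59.7%). Gsto1 (0.45, limma adjusted p 0.00223) and Gstp1 (0.34, 0.00716) were then higher, and Gsta4, Mgst1 and Mgst2 lower.

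The knockout libraries themselves split in pairs. Gsto1 was 152 in both knockout libraries 1 and 2 and 268 in both 3 and 4. Gstp1 was 146 and 166 against 247 and 236 in the same order, Gstm5 5.80 and 5.51 against 12.6 and 13.0, and Mgst3 10.8 and 18.6 against 36.6 and 36.4. Gstt2 followed with a smaller gap, at 40.2 and 38.8 against 50.0 and 54.1. Mgst2 went the opposite way, at 71.8 and 68.8 in knockout libraries 1 and 2 and 16.6 and 10.9 in 3 and 4, and so did Mgst1, at 538 and 442 against 269 and 276. Gsta4, at 6.11, 3.47, 0.981 and 2.17, and Gstm1, at 38.5, 31.3, 22.9 and 26.2, were also lower in libraries 3 and 4.

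Several other measures split the same way. Myc was 1119.8 and 1692 in knockout libraries 1 and 2 and 2962 and 3210.4 in 3 and 4, and the T-cell, NK-cell, myeloid, plasma-cell, dendritic-cell and basophil and mast-cell sums were all lower in 3 and 4. The NK-cell sums were 333 and 228 against 13.2 and 12.8, the plasma-cell sums 201 and 245 against 14.7 and 12.7, the dendritic-cell sums 31.9 and 23.2 against 4.80 and 3.36, and the basophil and mast-cell sums 27.4 and 25.9 against 1.42 and 0.651. The early B-cell sums were 42.3 and 42.0 against 30.4 and 28.3. B-cell marker sums were close in all 4 libraries, at 6606, 6718, 6082 and 6237. Other sums did not follow the split: in knockout libraries 1 to 4 the platelet sums were 128, 31.5, 32.9 and 37.6 and the erythroid sums 95.9, 81.2, 112 and 118. All 4 platelet markers were called lower in the knockout group against WT, and 0 of 7 erythroid markers were called in any comparison. The part of these measures in the split of the transferases was not tested. With only knockout libraries 1 and 2 kept, a step added after the data were seen, 0 of the 9 genes were called against Eμ-Myc, while the calls over all genes went from 1 to 455 (3.66%). The log2 fold changes were then -0.40 for Gsto1 (limma adjusted p 0.0942), -0.35 for Gstp1 (0.221), -0.53 for Gstt2 (0.116), -0.80 for Gstm5 (0.0810), -0.90 for Mgst3 (0.120) and 0.62 for Mgst2 (0.310). The labels name no batch for these libraries, so no value within a batch could be given.

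In the knockout group against WT, Gsto1 and Gstt2 rose and the other eight genes did not pass. The 2 of 10 genes called compare with 30.3% of 12692 genes (18.7% higher and 11.5% lower). Gsto1, at 152, 152, 268 and 268 in the knockout group, lay above all WT libraries, by 1.46 on the log2 scale (SE 0.28, limma adjusted p 0.0153). Gstt2, at 40.2, 38.8, 50.0 and 54.1, did so as well, with 0.72 (SE 0.19, limma adjusted p 0.0305). Gstp1 also lay above WT in every library, but by little: its lowest knockout value was 146 and its highest WT value 145. It did not pass, at 0.53 (95% interval 0.09 to 0.97, limma adjusted p 0.0644). These 3 genes without overlap compare with 38% of all genes tested.

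Gstm5, Mgst3 and Mgst2 overlapped between the knockout group and WT and did not pass. Gstm5 had a log2 fold change of 1.16 (95% interval 0.16 to 2.15, limma adjusted p 0.0699), Mgst3 of 0.86 (-0.06 to 1.77, adjusted p 0.115) and Mgst2 of -1.78 (-3.35 to -0.20, adjusted p 0.0742). The intervals of the other four genes included 0, and their log2 fold changes were 0.03 for Gstm1, -0.18 for Mgst1, -0.63 for Gsta4 and -0.81 for Gstt1. Leaving out single libraries changed calls here and over all genes. The log2 fold change then ran from 1.3 to 1.63 for Gsto1 and from 0.58 to 0.81 for Gstt2. The call of Gsto1 was lost without WT library 2 (adjusted p 0.0522) or 3 (0.0531), where 4.78% and 4.96% of all genes were called. That of Gstt2 was lost without WT library 1 (0.0634), 2 (0.0732) or 3 (0.0755), or without knockout library 3 (0.0861) or 4 (0.0904). Of all genes, 6.84% were called without WT library 1, and 5.64% and 4.92% without knockout libraries 3 and 4. With only knockout libraries 1 and 2 kept, Gsto1 was still called (1.05, adjusted p 0.0421) and Gstt2 was not (0.53, adjusted p 0.148), and Mgst3 and Mgst2 stood at 0.19 and -0.60. Without knockout library 1, 6 of the 9 genes tested were called, beside 54.0% of all genes: Gsto1, Gstt2, Gstm5 (adjusted p 0.0427), Gstp1 (0.0175) and Mgst3 (0.0151) higher, and Mgst2 (0.0308) lower. Without knockout library 2, Mgst2 was called as well (0.0481), with 3 genes in all, beside 33.8% of all genes.

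**Figure D3:**
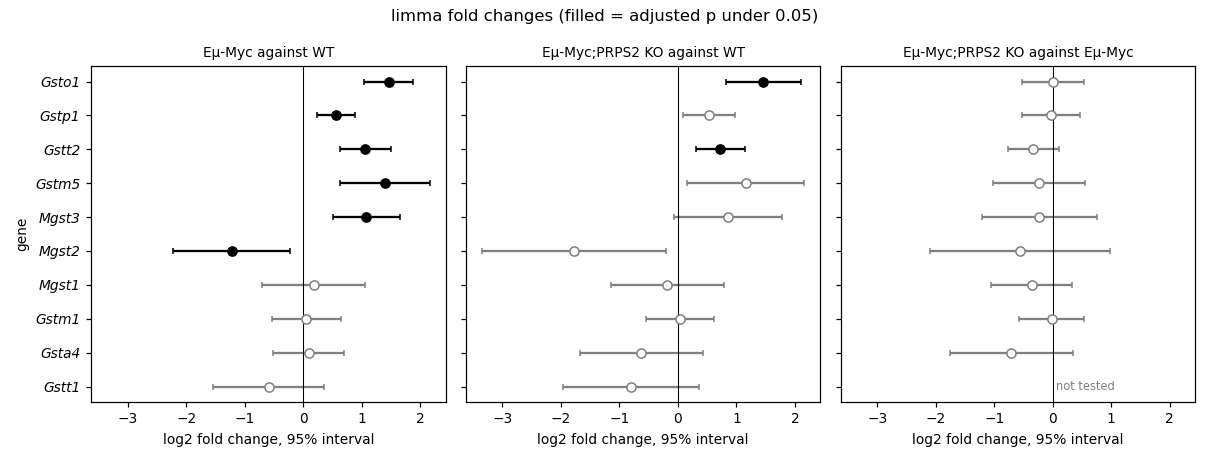
Log2 fold change (x axis) of each gene with its 95% interval in the 3 comparisons; filled points have a limma adjusted p under 0.05. 6 genes are filled in Eμ-Myc against WT, Gsto1 and Gstt2 in the knockout group against WT, and none in the knockout group against Eμ-Myc, where Gstt1 was not tested.

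The order of levels shifted between the groups. In WT, Mgst1 (mean 475 ± 323) was followed by Gstp1 (135 ± 12.3), Mgst2 (119 ± 60.7), Gsto1 (75.0 ± 20.9), Gstm1 (29.7 ± 10.3), Gstt2 (27.6 ± 5.34), Mgst3 (12.6 ± 2.89), Gsta4 (4.55 ± 1.24), Gstm5 (3.89 ± 1.80) and Gstt1 (1.58 ± 0.753; SD, n = 4). Library ranges of neighbours overlapped for Gstp1 and Mgst2, Mgst2 and Gsto1, Gstm1 and Gstt2, Gsta4 and Gstm5, and Gstm5 and Gstt1. In Eμ-Myc the order was Mgst1 (485 ± 162), Gsto1 (202 ± 24.7), Gstp1 (201 ± 41.0), Gstt2 (58.5 ± 13.2), Mgst2 (50.6 ± 29.5), Gstm1 (30.5 ± 9.54), Mgst3 (27.9 ± 8.14), Gstm5 (10.4 ± 2.52), Gsta4 (4.87 ± 1.32) and Gstt1 (0.896 ± 0.660). There, ranges of neighbours overlapped for Gsto1 and Gstp1, Gstt2 and Mgst2, Mgst2 and Gstm1, and Gstm1 and Mgst3. Of these pairs, Mgst2 lay above Gstm1 in each Eμ-Myc library, and the others changed order between libraries. The knockout group had the same order of means as Eμ-Myc, from Mgst1 (381 ± 132), Gsto1 (209.8 ± 67.3) and Gstp1 (198 ± 50.1) down to Gstt1 (0.755 ± 0.682). Ranges of neighbours overlapped in the knockout group for every pair except Mgst1 and Gsto1, and Gstp1 and Gstt2. Mgst1 and Gsto1 were nearly level in knockout libraries 3 (268.6 and 268.5) and 4 (275.7 and 267.5). In knockout library 1, Gsta4 (6.11) was above Gstm5 (5.80).

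As a share of the summed coverage of the 10 genes, Gsto1 made up 6.45% to 11.7% of a WT library, at least 16.1% of an Eμ-Myc library and 15.0% to 29.1% of a knockout library. Mgst2 made up 10.4% to 21.9%, 3.50% to 6.41% and 1.18% to 7.43% in the same order. Mgst1 took 43.7% to 66.1% of WT libraries, 39.5% to 49.0% of Eμ-Myc libraries and 29.1% to 53.2% of knockout libraries. Over all 10 genes the sum was 883 ± 386 for WT, 1072 ± 271 for Eμ-Myc and 945 ± 43.2 for the knockout group (SD, n = 4). Without Mgst1 the sum was 409 ± 76.8 for WT, 587 ± 118 for Eμ-Myc and 565 ± 99.7 for the knockout group (SD, n = 4). Library sums overlapped between WT and the other groups either way. Without Mgst1, WT library 1 stood at 492, Eμ-Myc library 1 at 490 and knockout library 1 at 472.

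**Figure D4:**
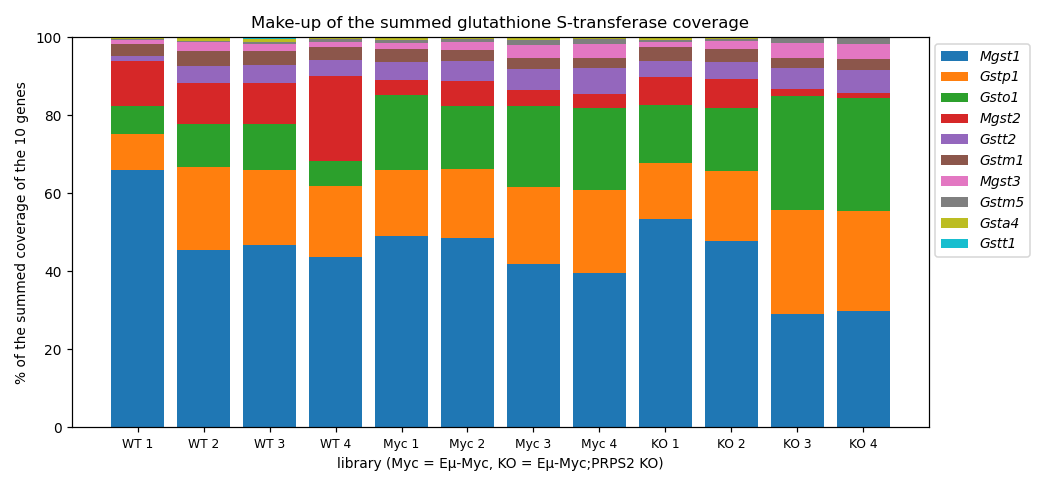
Stacked bars of the percent (y axis, from 0) that each of the 10 genes takes of their summed scaled coverage in each library. Gsto1 is wider in the Eμ-Myc and knockout libraries (15.0% or more) than in WT (11.7% or less), and Mgst2 narrows to 1.18% in knockout library 4.

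Across the 12 libraries some members varied together. Log2 levels of Gstp1 and Mgst3 correlated with r = 0.90, Gstp1 and Gstt2 with 0.86, Gstp1 and Gsto1 with 0.85, and Gstm5 and Gsto1 with 0.83, while Mgst1 and Gstm1 correlated with 0.93. These values describe 12 points. The first 4 pairs are of genes that rose in Eμ-Myc and so share a group difference, while Mgst1 and Gstm1 were called in no comparison and were both highest in WT library 1. Of 9650 genes averaging 8 or more in scaled coverage, those most like Gsto1 were Tk1 (r = 0.99), Lhpp, Coq4, Mfsd12 and Spc24, and those most like Gstp1 were Atp5d (r = 0.993), Myg1, Trmt112, Polr2l and Pfdn2. Those most like Mgst1 were Wfdc21 (r = 0.931), Gstm1, Mir6418, Cyb5r1 and Preb. Mir6418 overlaps Gnb2, so its coverage cannot be assigned to it.

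The rest of the family was lower or absent for the most part. Of 17 other transferase genes listed, 16 were in the files and 8 were high enough to be tested. In Eμ-Myc against WT, Gstt3 and Gstz1 rose and Gstp3 fell, 3 of 8 where 55.8% of all genes were called, with a median log2 fold change of 0.10. Gstz1 encodes the zeta-class enzyme of tyrosine breakdown. It held 47.4, 62.1, 65.1 and 64.1 in WT and 92.7, 116, 111 and 121 in Eμ-Myc, without overlap, and rose by 0.88 (SE 0.13, limma adjusted p 4.70e-04). Its exons overlap those of Gm6566 and Pomt2 on the opposite strand. Both also rose in the knockout libraries relative to WT, Gstt3 by 1.07 (limma adjusted p 0.0186) and Gstz1 by 0.92 (limma adjusted p 0.0309). Relative to Eμ-Myc, 0 of 8 were called. Of the 3 other MAPEG genes, Alox5ap, the activating protein of leukotriene synthesis, reached 1719.8 in WT library 1 and 34.4 in knockout library 4, in step with the myeloid sums, and was not called in any comparison.

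Among genes that supply glutathione, those of its first synthetic step rose. Gclc, the catalytic subunit of the first enzyme of glutathione synthesis, rose from 66.7 ± 6.44 in WT to 137 ± 21.4 in Eμ-Myc (log2 fold change 1.02, limma adjusted p 2.31e-04) and stood at 143 ± 42.9 in knockout libraries, where it also passed against WT (1.05, limma adjusted p 0.0189). Gclc was 103 and 109 in knockout libraries 1 and 2, against 177 and 182 in 3 and 4. Its partner Gclm rose by 0.63 (adjusted p 0.00497), so 2 of the 4 genes tested on this list were called, with a median of 0.49. That share is near the 55.8% of all genes called in this comparison. In the knockout group against WT only Gclc of the 4 was called, beside 30.3% of all genes. Gclm there had a log2 fold change of 0.61 (limma adjusted p 0.0664) with overlapping groups, at 30.9 and 31.2 in knockout libraries 1 and 2 and 48.1 and 50.5 in 3 and 4. Gsr, which reduces oxidised glutathione, held 408 in WT library 1 and 84.3 to 111 in the other WT libraries and did not pass (adjusted p 0.116).

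Of 10 genes tested that export and process the conjugates, 5 fell in Eμ-Myc against WT and 0 rose, with a median of -0.66. Over all genes 55.8% were called and 27.5% were lower. Abcc1, a well-known exporter of glutathione conjugates, fell by 0.58 (SE 0.18, limma adjusted p 0.0208), from 15.6 ± 2.01 to 10.4 ± 2.10. Of 5 peptidase genes tested on this list, 4 fell, each further than Abcc1 on the log2 scale: Ggt1 by 2.87 (adjusted p 0.00217), Ggt5 by 1.63 (0.0251), Dpep2 by 1.29 (0.0440) and Anpep by 0.73 (0.0268). The other, Ggt7, did not pass (-0.93, adjusted p 0.0803). All 4 that fell were highest in WT library 1 or 4, the libraries with the highest myeloid and T-cell sums. Anpep held 25.0 in WT library 1, 11.7 in WT library 4, 16.5 and 11.2 in knockout libraries 1 and 2, and 2.18 and 1.74 in 3 and 4. The part of those cells in these falls was not tested. In the knockout group against WT 0 of the 10 were called, beside 30.3% of all genes.

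Of 8 NRF2 regulators and targets outside the family, 0 rose and 2 fell in Eμ-Myc against WT, where 28.3% of all genes were higher and 27.5% lower, with a median of -0.06. Bach1, a repressor of NRF2 targets, fell by 1.08 (limma adjusted p 0.00499). It was 43.6 in WT library 1, which had the highest myeloid sum, and 20.5 to 26.2 in the other WT libraries. The lowest of these was WT library 4, whose myeloid sum of 14711 was the next highest of WT. In Eμ-Myc libraries 1 to 4 Bach1 held 17.4, 11.3, 11.6 and 10.7, beside myeloid sums of 9622, 16650, 6304 and 5589. In knockout libraries 1 and 2 it was 23.0 and 21.2, against 7.52 and 6.95 in 3 and 4, where the myeloid sums were also lower, and the part of myeloid cells in its fall was not tested. Srxn1, which repairs oxidised peroxiredoxins, fell by 1.09 (adjusted p 0.0174) and, in the knockout libraries, by 1.40 relative to WT (adjusted p 0.0407). In WT libraries 1 to 4 it held 6.00, 8.04, 7.77 and 2.87, beside platelet sums of 223, 384, 366 and 76.9. In knockout libraries it held 3.93, 1.84, 1.20 and 1.30, beside platelet sums of 128, 31.5, 32.9 and 37.6. The part of platelets in the fall of Srxn1 was not tested. Nqo1, a widely used NRF2 target, stayed between 0.680 and 3.28 in all 12 libraries, and Nfe2l2, which encodes NRF2, averaged 67.0 ± 20.6 in WT and 50.6 ± 4.77 in Eμ-Myc without a call (adjusted p 0.121).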

How the data were processed

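RNA of 12 libraries was measured, polyadenylated per the labels. The authors deposited mean coverage (a signal) for 24982 gene symbols in each library, to 1 decimal, and 91.6% of values above 0 were not whole. Build mm10, DESeq and R 4.3.3 are named without a role in the submitters' processing notes. The aligner and counter are not given in the sources used here. How many reads lie behind a value is unknown. Coverage sums ran from 1277305.5 to 1885768.9.

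Libraries were scaled by unweighted trimmed means of log ratios to the mean library, over genes with a mean coverage of at least 1 (30% of ratios and 5% of means trimmed at each end). The plan named this method but left its reference and gene set open, and the version used was settled after the data were seen. The first version took 1 library as reference and genes above 0 in both. It tested 12692, 12531 and 12654 genes in Eμ-Myc against WT, the knockout group against Eμ-Myc and the knockout group against WT, and called 6993, 1 and 3515. A further 42 versions followed (each library as reference with 2 gene sets, and 3 averages with 6 gene sets). The one kept was among 14 of the 43 whose numbers of genes tested, 12704, 12535 and 12692, equal those in earlier results of these data, and the members' results were not consulted. It called 7089, 1 and 3842 genes. Over all 43, calls ran from 6935 to 7345, stayed at 1, and ran from 3506 to 4162, and members called ran from 5 to 6, stayed at 0 and stayed at 2.

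Genes reaching 1 in 4 or more of the 8 libraries of a comparison were fitted with limma 3.58.1 (R 4.3.3, trended prior, robust empirical Bayes) on log2(scaled coverage + 0.5), which understates changes of low genes. Tests were two-sided with Benjamini-Hochberg adjustment over all genes. The fit was also run on simulated data, with independent noise for each gene and far fewer changed genes than here. That run does not measure error rates in these comparisons. Positions are from GENCODE M21. Members, lists and tests were chosen with earlier results of these data known. The genes named were the 10 members, Prps2, Myc, members of the listed gene groups and, for Mgst1, Gstp1 and Gsto1, the 5 genes with the highest correlation over libraries.

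Groups share replicate numbers. For numbers 1 to 4, the knockout and Eμ-Myc libraries of one number, each centred on its group, correlated across genes at 0.666, 0.194, 0.250 and 0.622. Each exceeds 0.1, the limit set for pairing, but only libraries 1 and 4 correlated best with their own number: 2 matched 1 better and 3 matched 4 better. The results given are from the fit without the block, as planned, and blocked intervals are given beside 4 of them. Other scalings, filters, pseudocounts, a joint fit of 12 libraries, a replicate block, quality weights and leaving out each library were tried. Keeping only knockout libraries 1 and 2 was added after the data were seen.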

Additional observations from a re-analysis of the deposited data

Results flagged for a closer look

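In 5 of the 30 gene and group combinations, 1 of the 4 libraries lay far from the other three, judged by its gap to the nearest relative to the whole range. Chance gives about 1 in 20. Mgst1 was 958 in WT library 1 and 351 in the next highest WT library. Mgst2 was 94.7 in Eμ-Myc library 2 and 38.3 in the next highest. Mgst3 was 15.8 in Eμ-Myc library 1 and 31.1 in the next lowest. Gsta4 was 2.90 in Eμ-Myc library 4 and 5.31 in the next lowest. Gstt1 was 0.458 in WT library 4 and 1.82 in the next lowest.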

How the results depend on the processing

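In Eμ-Myc against WT, 3 of the 6 genes left were called when every library had to reach 10 (59.4% of all genes), in place of 6 of 10, and the joint fit and the replicate block called 5 each (43.9% and 57.6% of all genes). Against Eμ-Myc, quality weights called 5 knockout-group genes in place of 0, with weights of 0.0848, 0.129, 3.10 and 8.33 for knockout libraries 1 to 4. Against WT, the joint fit of 12 libraries called 5 (48.0% of all genes) and quality weights 8 (83.2%), in place of 2. Leaving out each library gave 5 to 6, 0 to 0 and 0 to 6 calls in the 3 comparisons, beside 5850 to 6939, 1 to 1 and 601 to 6737 calls over all genes. Over all genes, quality weights called 7488 and 10559 in the comparisons with the knockout group, and the last comparison had 6097 calls in the joint fit and 1820 with the replicate block. With only knockout libraries 1 and 2 kept, 1 member and 1341 of all genes were called against WT, and 455 of all genes against Eμ-Myc. Some directions turned. With total coverage, which moved the median of all genes to -0.19 and -0.17 from -0.06, Gsta4 was -0.03 and Gstm1 -0.08 in Eμ-Myc against WT, and Gstm1 was 0.00 and -0.07 in the knockout comparisons. That scaling also gave 3057 higher and 4227 lower calls in Eμ-Myc against WT, in place of 3599 and 3490. With quality weights, Gsta4 was -0.10 in Eμ-Myc against WT, and in the knockout group against Eμ-Myc Gstm5, Gstp1 and Mgst3 turned to 0.16, 0.34 and 0.31, Gstp1 with a limma adjusted p of 0.00716. Leaving out libraries, Gsta4 ran from -0.08 to 0.29, Gstm1 from -0.14 to 0.26 and Mgst1 from -0.03 to 0.58 in Eμ-Myc against WT. Against Eμ-Myc the knockout-group values ran from -0.15 to 0.17 for Gstm1, -0.13 to 0.14 for Gsto1, -0.15 to 0.10 for Gstp1 and -0.48 to 0.12 for Mgst3. Against WT they ran from -0.10 to 0.24 for Gstm1 and -0.37 to 0.22 for Mgst1. The replicate block lost the call of Mgst2 in Eμ-Myc against WT (limma adjusted p 0.0736) and changed no other member call. Same-numbered libraries there, and in the knockout group against WT, did not all correlate above 0.1. The cause of these changes was not tested.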
